A study of Mus musculus with 8 samples.

Results

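ATMs were selected from adipose tissue for the macrophage membrane protein F4/80, and their arrays also gave signal for genes known from the cells that surround macrophages in fat. The genes described here are markers of 4 such cell classes: mural cells (9 genes), fibroblasts (12 genes), adipocytes (11 genes) and mesothelial cells (3 genes). They were chosen as known markers of these classes, by exact gene symbol and not by a cut on their values. Earlier results of these data were known when they were chosen. Of the 35, 33 were measured, of 18820 genes in all. Fbn1, a fibroblast gene, and Cfd, an adipocyte gene, had no probe set carrying their symbol alone and have no values here.

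The pools came from wildtype male C57Bl/6 mice, whose age is not given in the sources used here. In each of 4 experiments, 1 pool of ATMs from obese mice, fed an HFD, and 1 pool of ATMs from lean mice, fed an LFD, were each hybridised to 1 array. All diets were based on lard, with 45% of energy from fat in the HFD of experiments 1 and 3, 60% in that of experiments 2 and 4, and 10% in every LFD. Feeding lasted 16, 15, 16 and 10 weeks in experiments 1, 2, 3 and 4 by the sample labels, so that fat content, feeding length and experiment cannot be told apart. Cells were taken from the stromal vascular fraction of epididymal adipose tissue, freed with collagenase, by magnetic beads against F4/80. Every array measured pooled animals, so the spread is that between pools, and the number of arrays limits the precision. Levels are log2 values as deposited, and a difference of 1 is a 2-fold change. As a guide to brightness, a log2 level of 4.32, an intensity of 20, was taken as the limit under which a probe set counted as dim.

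Pools stood apart in what they held besides the genes described here. Adgre1, which encodes F4/80, had levels of 6.54 and 8.58 in the lean and obese pools of experiment 1 and of 9.95 to 10.95 on the other 6 arrays. The mean level of 15 macrophage genes was 7.31 and 8.60 on the arrays of experiment 1 and 9.92 to 10.58 on the others, whereas that of 17 endothelial genes was 10.48 and 10.13 against 5.63 to 8.94. The lowest endothelial mean, 5.63, belonged to the lean pool of experiment 3, in which Pecam1 and Cdh5, both of endothelial junctions, had levels of 6.74 and 7.20. In RNA of such pools, fewer cells of a type and less RNA per cell cannot be told apart.

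Mural cells, the pericytes and smooth muscle cells, wrap around capillaries and larger vessels, and are held there by PDGF-B from the endothelium, which acts on PDGFR-β, and by Notch signals. Fibroblasts and their progenitors lie in the stroma, carry PDGFR-α and lay down collagens and small proteoglycans. Adipocytes store triacylglycerol and secrete hormones such as adiponectin and leptin, and because of their fat they float off when the stromal vascular fraction is spun down. Mesothelial cells form the thin sheet that covers the fat depot towards the peritoneal cavity.

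Of the 4 classes, the mural genes varied most between experiments. All 9 had both of their highest levels on the arrays of experiment 1, and all 9 had their lowest level in the lean pool of experiment 3. Over all genes, 16.4% had both arrays of experiment 1 above the other 6, and 11.7% were lowest in the lean pool of experiment 3. These patterns were seen in the data before they were counted. Experiment accounted for a median of 86.3% of a mural gene's sum of squares and diet for 0.93%, against 56.6% and 7.94% over all genes. A large share of experiment was not particular to mural genes. The shares were 85.4% and 5.19% for the 15 macrophage genes and 78.0% and 0.54% for the 17 endothelial genes. The endothelial genes followed the same order, with 17 of 17 highest on both arrays of experiment 1 and 17 of 17 lowest in the lean pool of experiment 3, and 0 of the 15 macrophage genes did either. How far vessel fragments in the pools set the mural levels was not tested.

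Pdgfrb, the PDGF receptor that marks pericytes, had levels of 9.96, 7.99, 5.16 and 8.16 in the lean pools of experiments 1 to 4 and of 10.05, 8.46, 7.76 and 7.45 in the obese pools. Rgs5, a regulator of G protein signalling found in pericytes, had levels of 11.30, 9.34, 6.36 and 9.41 in the lean pools and of 11.13, 8.70, 8.65 and 8.06 in the obese pools. For both genes the arrays of experiment 1 stood highest, the lean pool of experiment 3 lowest, and the diets overlapped. Within experiment 3 the obese pool had 6.03 times the level of the lean pool for Pdgfrb and 4.87 times for Rgs5, whereas in experiment 4 it was 1.63-fold and 2.56-fold lower. Cspg4, the NG2 proteoglycan of pericytes, had differences of 0.49, -0.06, 1.68 and -0.56 in experiments 1 to 4.

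Acta2, smooth muscle α-actin, had levels of 10.86, 8.75, 6.48 and 8.75 in the lean pools and of 10.53, 8.46, 7.68 and 7.05 in the obese pools. Myh11, the smooth muscle myosin heavy chain and the marker most restricted to these cells, had levels of 9.34, 7.39, 4.998 and 7.31 in the lean pools and of 9.44, 7.39, 6.19 and 6.40 in the obese pools. The contractile genes were thus ordered like the pericyte genes, highest in experiment 1 under either diet. Tagln, an actin-binding protein of smooth muscle, ranged from 5.19 to 9.83, and Des, the intermediate filament desmin, from 4.08 to 7.52. Notch3, the Notch receptor of mural cells, had nearly the same level in both pools of experiment 1, 8.31, and ranged from 4.69 to 6.50 on the other arrays. Cnn1, calponin of contractile smooth muscle, exceeded the limit for dim probe sets only in the lean pool of experiment 1, at 4.87.

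The contractile genes are classic targets of serum response factor, which binds the CArG box. These promoters are shown because the contractile genes moved together, as the pericyte and endothelial genes also did. What part the box had in this was not tested. Of 6 mural genes described here with a promoter window in RefSeq, Acta2 held such a box within 250 bases upstream of its start, and of 13 further mural genes Myl9, the smooth muscle myosin light chain, did. Of 16 genes of the other 3 classes with a window, 3 (Col1a2, Lep and Plin4) held one as well. The box was searched by its name's pattern on both strands, which are equivalent for a palindrome, with at least 5 of the 6 core bases being A or T. That tolerance was set after a search for 6 of 6 found none in Acta2. Boxes of this kind were in 2823 of 32851 windows (8.59%), so a match describes the sequence and is in itself no evidence of binding. In the stretches below, from RefSeq on GRCm38.p6 and written 5′ to 3′ in the direction of the gene, capitals mark the boxes, which start 84 and 34 bases upstream of the start of Acta2 (chr19:34255386-34255469, minus strand) and 161 and 99 bases upstream of that of Myl9 (chr2:156775291-156775386, plus strand).
Acta2: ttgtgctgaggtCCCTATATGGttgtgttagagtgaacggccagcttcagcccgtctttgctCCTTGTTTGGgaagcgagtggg
Myl9: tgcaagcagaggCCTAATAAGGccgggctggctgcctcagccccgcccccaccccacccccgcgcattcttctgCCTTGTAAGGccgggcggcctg

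Myl9 had levels of 10.18, 7.74, 5.08 and 8.04 in the lean pools and of 9.57, 7.47, 6.67 and 6.25 in the obese pools. Its arrays fell in an order close to that of Acta2, with experiment 1 highest and the lean pool of experiment 3 lowest. Its differences between diets were -0.60, -0.27, 1.59 and -1.78 in experiments 1 to 4, and those of Acta2 -0.32, -0.30, 1.21 and -1.70.

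**Figure D1:**
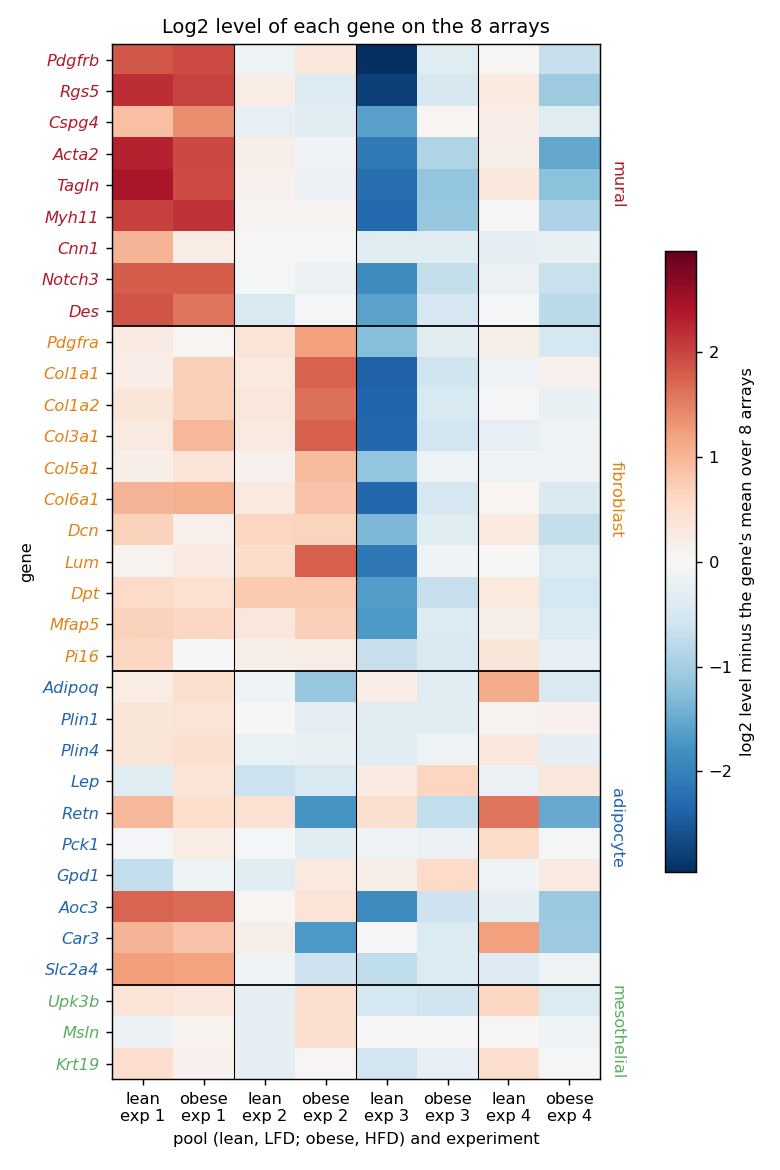
Log2 level of each of the 33 genes (rows, grouped by cell class) on the 8 arrays (columns, lean and obese pools of experiments 1 to 4), shown by colour as the difference from the gene's mean over the 8 arrays. All 9 mural genes were highest on both arrays of experiment 1, and all mural and fibroblast genes were lowest in the lean pool of experiment 3.

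All 11 fibroblast genes had a higher mean on its arrays than on the other 6, but only 1 of 11, Col6a1, had both arrays of experiment 1 above every other array. The obese pool of experiment 2 had the highest fibroblast mean, 8.63, followed by the pools of experiment 1 at 8.00 and 7.96, with the other arrays at 5.76 to 7.89. All 11 were lowest in the lean pool of experiment 3, like the mural genes. The fibrillar collagens Col1a1, Col1a2, Col3a1 and Col5a1 had 1.42-fold to 2.04-fold higher means in obese pools, none of which passed the adjusted test.

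Col1a1, the α1 chain of type I collagen, had levels of 8.69, 8.77, 6.09 and 8.37 in the lean pools and of 9.19, 10.22, 7.90 and 8.61 in the obese pools. Means were 7.98 ± 1.27 (SD, n = 4 pools) and 8.98 ± 0.98 (SD, n = 4 pools), a log2 difference of 1.00 (SE 0.71). The obese pool was higher in 4 of 4 experiments, by 1.42-fold, 2.74-fold, 3.50-fold and 1.19-fold, while the levels of the diets overlapped across experiments.

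Col3a1, the chain of type III collagen, had levels of 8.89, 8.90, 6.30 and 8.39 in the lean pools and of 9.63, 10.41, 8.07 and 8.49 in the obese pools. It was also higher in the obese pool in 4 of 4 experiments, by as little as 1.07-fold in experiment 4 and as much as 3.41-fold in experiment 3, with a mean difference of 1.03 (SE 0.72). Col1a2 (0.84 (SE 0.71)) and Col5a1 (0.51 (SE 0.36)), of types I and V collagen, were higher in 3 of 4 experiments and lower in experiment 4, by -0.18 and -0.01. A further probe set of Col5a1, the only gene of the 33 with more than 1, had a mean difference of -0.16.

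The other fibroblast genes had mean differences from -0.23 to 0.75. Pdgfra, the receptor that marks adipose stromal progenitors, had levels of 7.12, 7.25, 5.60 and 7.04 in the lean pools and of 6.92, 8.09, 6.55 and 6.34 in the obese pools. Its levels overlapped between diets, and its differences were -0.19, 0.84, 0.95 and -0.71 in experiments 1 to 4. Dcn, the proteoglycan decorin, had levels of 11.05, 11.00, 9.03 and 10.67 in the lean pools and of 10.52, 11.04, 10.00 and 9.66 in the obese pools. Lum, the proteoglycan lumican, differed by 0.13, 1.24, 1.99 and -0.38, with a mean of 0.75 (SE 0.68). Dpt (dermatopontin), Mfap5 (a microfibril protein) and Pi16, a marker of stromal progenitors, had mean differences of 0.01 (SE 0.59), 0.25 (SE 0.55) and -0.23 (SE 0.28), and Col6a1, of type VI collagen, 0.49 (SE 0.74).

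Adipocyte genes did not move as 1 class. Retn and Car3 were lower in obese pools in 4 of 4 experiments, Lep and Gpd1 were higher in 4 of 4, and Plin1, the lipid droplet coat protein of adipocytes, stayed between 4.54 and 5.25 on all arrays. Over all genes, 11.0% were higher and 7.43% lower in all 4 experiments. Of the 33 genes described here, 4 were higher in all (Col1a1, Col3a1, Lep and Gpd1) and 2 lower in all. Of the 10 adipocyte genes, 3 were dim on more than 4 arrays (Plin4, Pck1 and Slc2a4).

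Retn encodes resistin, a hormone that mouse adipocytes secrete. Its levels were 6.73, 6.22, 6.25 and 7.36 in the lean pools and 6.30, 4.03, 5.04 and 4.29 in the obese pools. The lean pools lay together, and the obese pools of experiments 2 to 4 were below all of them, whereas that of experiment 1 lay among them. Means were 6.64 ± 0.53 (SD, n = 4 pools) in lean and 4.92 ± 1.02 (SD, n = 4 pools) in obese pools, a log2 difference of -1.72 (SE 0.51), or 3.30-fold lower. Within experiments the obese pool was lower by 1.34-fold, 4.57-fold, 2.30-fold and 8.40-fold, in the order of the experiments. The levels of experiments 2 and 4 in obese pools, 4.03 and 4.29, were under the limit for dim probe sets.

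Car3, a carbonic anhydrase abundant in adipocytes, had levels of 9.51, 8.68, 8.47 and 9.72 in the lean pools and of 9.34, 6.80, 8.09 and 7.44 in the obese pools. Its lowest levels were in the obese pools of experiments 2 and 4, those of the HFD with 60% fat, and the diets overlapped. The mean difference was -1.18 (SE 0.55), with 3.68-fold and 4.88-fold lower levels in experiments 2 and 4 and 1.12-fold and 1.30-fold in experiments 1 and 3. Adipoq, which encodes adiponectin, had levels of 4.91, 4.60, 4.88 and 5.79 in the lean pools and of 5.17, 3.58, 4.39 and 4.25 in the obese pools. It was lower in the obese pools of experiments 2 to 4, by -1.02, -0.49 and -1.54, and higher in that of experiment 1, by 0.26. The obese pools of experiments 2 and 4 were under the limit for dim probe sets for Adipoq too, so the sizes of these differences are uncertain.

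Lep, which encodes leptin, had levels of 4.62, 4.35, 5.23 and 4.80 in the lean pools and of 5.35, 4.53, 5.61 and 5.30 in the obese pools. Gpd1, the glycerol-3-phosphate dehydrogenase of the cytosol, had levels of 4.24, 4.66, 5.15 and 4.88 in the lean pools and of 4.84, 5.27, 5.55 and 5.25 in the obese pools. Both genes were close to the limit for dim probe sets, their diets overlapped across experiments, and the within-experiment gaps were small but of 1 direction. The differences of Gpd1 were 0.60, 0.61, 0.40 and 0.38, with a mean of 0.50 (SE 0.22), and those of Lep 0.73, 0.19, 0.39 and 0.50, with a mean of 0.45 (SE 0.27).

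Aoc3, a vascular amine oxidase that adipocytes and smooth muscle both carry, had levels of 8.17, 6.50, 4.57 and 6.16 in the lean pools and of 8.12, 6.83, 5.84 and 5.34 in the obese pools. Its arrays thus fell in the order of the mural genes, with experiment 1 highest and the lean pool of experiment 3 lowest. Slc2a4, the insulin-responsive glucose transporter GLUT4, was at 5.65 and 5.60 in experiment 1 and between 3.68 and 4.29 elsewhere. Plin4, a droplet coat protein, and Pck1, a cytosolic enzyme of glyceroneogenesis, had mean differences of -0.08 (SE 0.22) and -0.17 (SE 0.18).

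**Figure D2:**
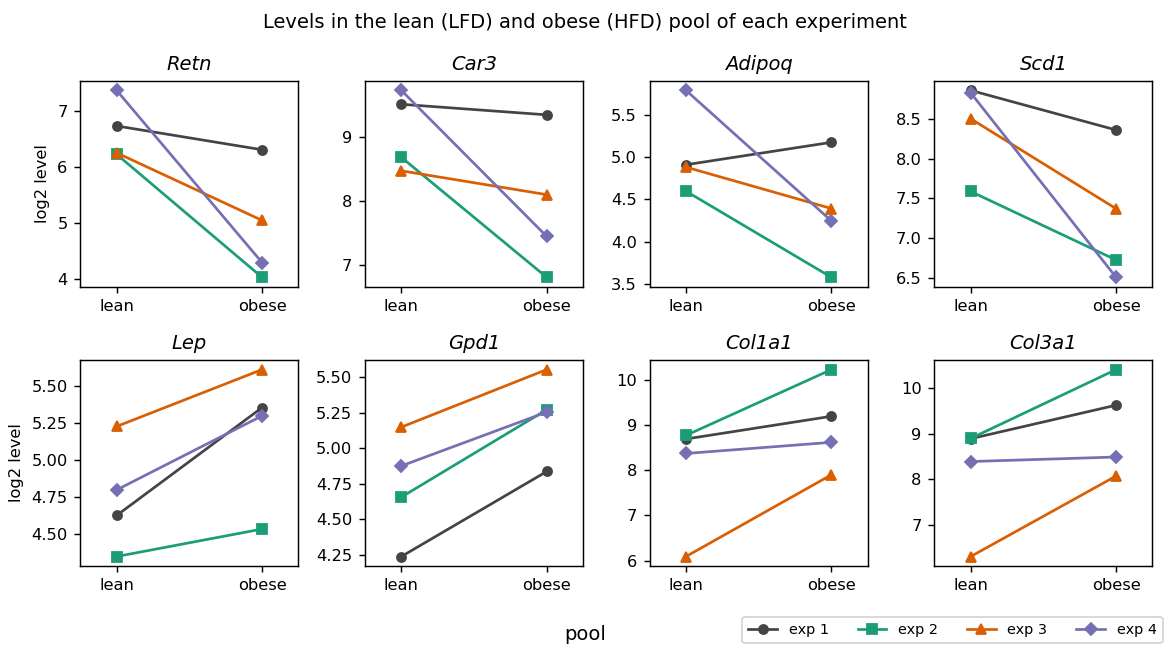
Log2 level in the lean and obese pool of each experiment (joined by a line) for Retn, Car3, Adipoq, Scd1, Lep, Gpd1, Col1a1 and Col3a1, each on its own axis. In every experiment the obese pool lies below the lean pool for Retn, Car3 and Scd1 and above it for Lep, Gpd1, Col1a1 and Col3a1, whereas for Adipoq it lies above in experiment 1 and below in the others.

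Of the mesothelial genes, 1 of 3 exceeded the limit for dim probe sets on every array. Upk3b, a uroplakin of mesothelium, had levels of 5.64, 4.97, 4.72 and 5.86 in the lean pools and of 5.59, 5.72, 4.65 and 4.85 in the obese pools. The diets overlapped, and the difference was 0.76 in experiment 2 and -1.004 in experiment 4. Msln, mesothelin, passed the limit only in the obese pool of experiment 2, at 4.43. Krt19, a keratin of simple epithelia, passed it only in the lean pools of experiments 1 and 4, at 4.43 and 4.44. Msln and Krt19 thus gave little signal to compare.

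For most of these genes the direction of the difference between diets changed with the experiment, as it did for most genes measured. Of the 33, 4 were higher and 2 lower in all 4 experiments, against 11.0% and 7.43% of all genes. In experiment 1, 0 of 33 differed by more than 2-fold, with 1.8% of all genes higher by that much and 0.361% lower. In experiment 2, Col1a1, Col1a2, Col3a1 and Lum were more than 2-fold higher in the obese pool (2.37% of all genes) and Adipoq, Retn and Car3 more than 2-fold lower (0.978% of all genes). In experiment 3, 16 were more than 2-fold higher (3.8% of all genes), of which 8 were mural, 7 fibroblast and 1 adipocyte, and only Retn was lower by that much (1.45% of all genes). In experiment 4, 0 were more than 2-fold higher (1.13% of all genes) and 8 were lower (2.65% of all genes), 3 of them mural, 3 adipocyte, 1 fibroblast and 1 mesothelial.

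The median difference of the mural genes was -0.17, -0.06, 1.20 and -0.75 in experiments 1 to 4, and that of the fibroblast genes 0.06, 0.82, 1.29 and -0.48. The endothelial genes had medians of -0.29, -0.89, 2.04 and -1.65 and the macrophage genes of 1.27, 0.06, -0.28 and 0.22, with all genes between -0.01 and 0.02. The mural and endothelial medians had the same sign in all 4 experiments, positive in experiment 3 and negative in the others, although in experiments 1 and 2 the mural medians were near 0. In experiment 2 fibroblast genes were higher in the obese pool (11 of 11) while 16 of 17 endothelial genes were lower. Of the fibroblast genes, Dpt (0.0008), Dcn (0.04) and Pi16 (0.04) were nearly unchanged there. Of 18820 genes in all, 10082 were higher and 7668 lower in that experiment. Adipocyte genes had medians of 0.07, -0.26, 0.07 and -0.60. What part endothelial material had in these differences was not tested.

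**Figure D3:**
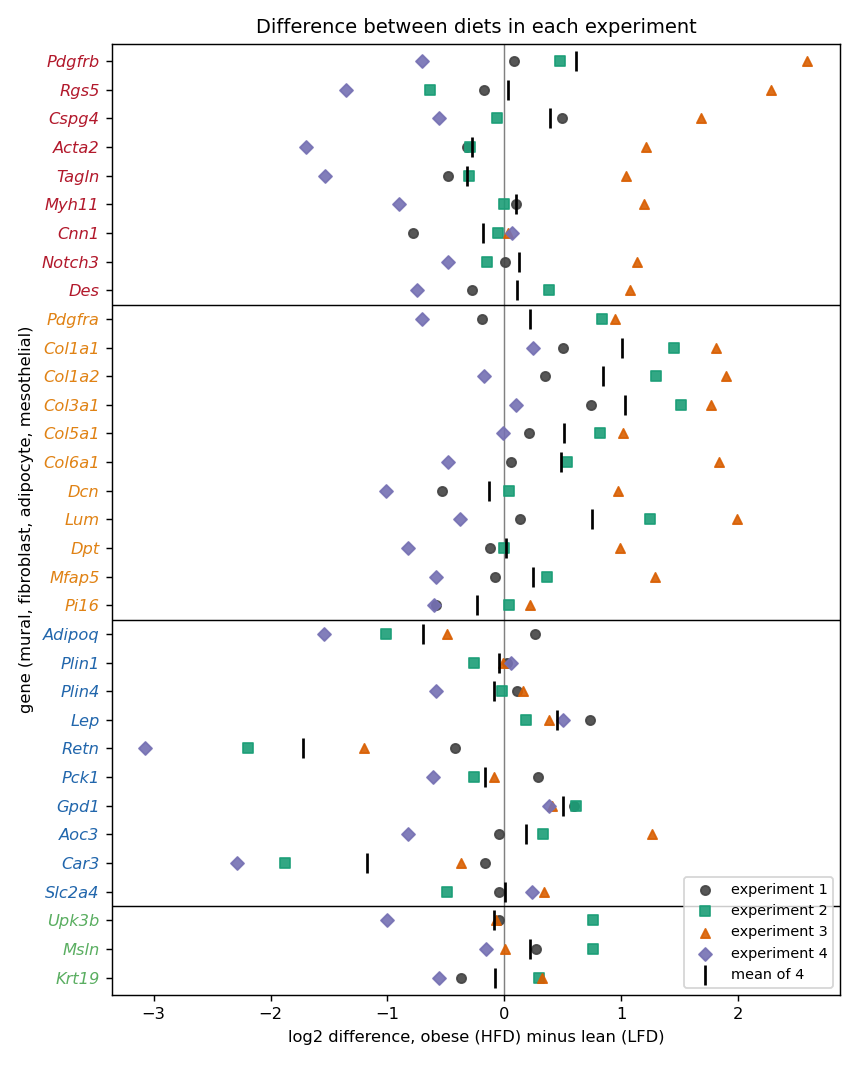
Log2 difference, obese minus lean, of each gene (rows, grouped by cell class) in each of the 4 experiments (symbols), with the mean of the 4 as a vertical bar. Mural and fibroblast genes lie to the right in experiment 3, most of them lie to the left in experiment 4, and Retn and Car3 lie left of 0 in every experiment.

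Over the 4 experiments, median differences were 0.10 for mural, 0.49 for fibroblast, -0.07 for adipocyte and -0.08 for mesothelial genes, against 0.00 for all genes. Without the lean pool of experiment 3 the mural median was -0.46 and the fibroblast median -0.16, and without the obese pool of experiment 1 the mural median was -0.45. By limma with Benjamini-Hochberg adjustment, 0 of 18820 genes passed an adjusted p of 0.05 (0%), and hence 0 of these 33. Before adjustment the limma fit put 621 genes higher (3.3%) and 284 lower (1.51%) in obese pools at its 0.05 level, or 312 and 402 with each array centred on its median. Of these 33 it put Retn alone there, lower in obese pools (limma, adjusted p = 0.982), and Car3 as well with centred arrays. The methods' t-test after Benjamini-Hochberg adjustment also called 0. With experiment as a block, which compares the pools of each experiment with each other, 0 genes (0%) passed the adjusted threshold. Before adjustment the block gave 1497 genes higher (7.95%) and 783 lower (4.16%) at the 0.05 level, or 979 and 1015 with centred arrays, and of these 33 it gave 5 higher (Col1a1, Col3a1, Col5a1, Lep and Gpd1) and 2 lower (Retn and Car3). The smallest adjusted p among them with the block was 0.121, for Gpd1 (limma). In the fit without the block, leaving out experiment 4 left 0 of the 33 at the unadjusted level, leaving out experiment 1 or its obese pool gave 4, leaving out the lean pool of experiment 3 gave 3, and leaving out experiment 2, its obese pool or experiment 3 gave 2.

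Differences between experiments, with diet in the fit, were tested with limma's moderated F test. It called 8.96% of all genes and 7 of these 33 at an adjusted p under 0.05. The called mural genes were Myh11 (adjusted p = 0.0345), Notch3 (0.0349), Tagln (0.0443) and Des (0.0469), 4 of 9. The called adipocyte genes were Slc2a4 (0.0311), Gpd1 (0.0476) and Aoc3 (0.0478), 3 of 10, and 0 of 11 fibroblast and 0 of 3 mesothelial genes were called, with 9 and 0 at the unadjusted level, which 27.2% of all genes reached. Called genes other than Gpd1 were highest on the arrays of experiment 1, whereas the mean of Gpd1 was lowest there, at 4.54 against 5.13 on the other arrays. With experiment 1 or experiment 2 left out, 0 of the 33 and 0 of all genes were called. With experiment 3 left out 10 of the 33 and 2573 of all genes were called, and with experiment 4 left out 5 and 787. With no experiment left out, the F test called 8 of 15 macrophage genes and 0 of 17 endothelial genes. At the unadjusted level 13 and 16 of them were found.

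**Figure D4:**
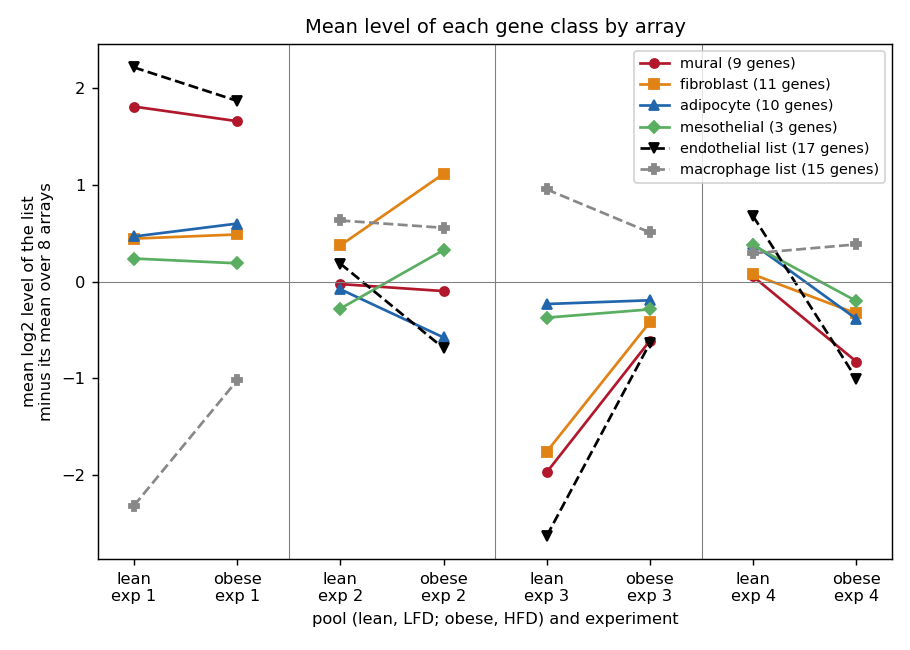
Mean log2 level of each class of genes on each array, minus the mean over the 8 arrays, with the endothelial and macrophage lists as dashed lines and the lean and obese pools of an experiment joined. The mural and endothelial lines are highest in experiment 1 and lowest in the lean pool of experiment 3, and the macrophage line is lowest in experiment 1.

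Further genes of the same classes were examined by the same counts. Over all genes, 16.4% had both arrays of experiment 1 highest and 11.7% were lowest in the lean pool of experiment 3. The F test called 8.96% of all genes. All 17 further mural genes had both arrays of experiment 1 above the other 6, and the F test called 8 of them, among them Higd1b of pericytes and Heyl, a target of Notch. Of 24 further fibroblast genes, 7 were highest on both arrays of experiment 1, and 21 were lowest in the lean pool of experiment 3. The F test called 5 of them (Clec3b, Sfrp4, Col6a3, Pcolce and Fap), against 0 of the 11 fibroblast genes above. With the block, 3 of 24 further fibroblast genes reached the unadjusted level, all higher in obese pools, as did 0 of 17 further mural and 0 of 10 further mesothelial genes. Over all genes, 7.95% were higher and 4.16% lower at this level. They were Col6a3, of type VI collagen (0.85 (SE 0.64)), Mmp2, a gelatinase (0.95 (SE 0.58)), and Bmper, a BMP-binding protein (0.96 (SE 0.47)). All 3 had their smallest difference in experiment 1 or 4.

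Further adipocyte genes also split by direction. Of 20, the block placed 3 higher and 4 lower at the unadjusted level (7.95% and 4.16% of all genes), and 0 passed the adjusted threshold in either fit. Scd1, the stearoyl-CoA desaturase, had levels of 8.87, 7.59, 8.51 and 8.83 in the lean pools and of 8.36, 6.72, 7.37 and 6.50 in the obese pools. It was lower in the obese pool in 4 of 4 experiments, with a mean difference of -1.21 (SE 0.46). Lipe, hormone-sensitive lipase (-0.56 (SE 0.48)), and Pcx, pyruvate carboxylase (-0.28 (SE 0.12)), were also lower in 4 of 4. Lpl, the lipoprotein lipase that macrophages make as well, had levels of 9.02, 9.74, 11.01 and 11.28 in the lean pools and of 11.26, 11.82, 12.12 and 12.03 in the obese pools, a mean difference of 1.55 (SE 0.50). Fabp4, which adipocytes, macrophages and capillary endothelium express, had differences of -0.01, -0.54, 2.17 and -0.82.

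Ligands of the PDGF and Notch families, not all of which act on the mural receptors, were measured by 8 genes. Of these, 6 had both arrays of experiment 1 above the others (16.4% of all genes) and 6 were lowest in the lean pool of experiment 3 (11.7%). Pdgfb, the ligand of PDGFR-β, had levels of 9.29, 8.24, 7.34 and 8.59 in the lean pools and of 9.60, 8.25, 8.74 and 8.69 in the obese pools, and was higher in the obese pool in 4 of 4 experiments, by 0.01 to 1.40. No other gene of the 8 had 1 direction in all 4 experiments. The F test called 1 of the 8, the Notch ligand Jag2, near the share of all genes called (8.96%). Cd68, of macrophage lysosomes, was higher in the obese pool in 4 of 4 experiments, with a difference of 2.45 in experiment 1 and of 0.36 to 0.44 in the others. Of the 15 macrophage genes it alone had 1 direction in all 4 experiments, and 13 of the 15 were lower in the obese pool of experiment 3. Of 14 genes of other leukocytes that F4/80 beads could retain, 10 were dim on more than 4 arrays. Ccr3, an eosinophil chemokine receptor, was higher in 4 of 4 experiments (1.10 (SE 0.52)). Prg2, an eosinophil granule protein, was lower in 4 of 4 (-0.31 (SE 0.15)), at levels under the limit for dim probe sets. No other gene of the 14 had 1 direction in all 4 experiments, and over all genes 11.0% were higher and 7.43% lower in all 4.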

How the data were processed

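RNA of 8 ATM pools was hybridised to Affymetrix whole-transcript arrays. The authors deposited log2 values per probe set, for which the submitters' processing notes list RMA (background correction, quantile normalisation and probe summary) without a version. RMA shrinks differences of dim probe sets. Array medians ranged from 4.25 to 4.39. Of 35556 features, 21218 carried 1 symbol and gave 18820 genes, each by its brightest probe set. The 1881 with several symbols and the 12457 with none were not used.

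HFD and LFD arrays were compared in limma 3.58.1 (R 4.3.3) without a block, after the unpaired test of the methods, with Benjamini-Hochberg adjustment over all genes. The samples were paired by the experiment number of the labels. Departures of the paired pools from the means of their diets correlated across genes with r of 0.889, 0.357, 0.652 and 0.186 in experiments 1 to 4. The correlation was thus weaker in experiments 2 and 4, and pools of different experiments were not compared in this way. Standard errors come from the fit without the block. Fits were tested on simulated data with independent noise, in which only a small set of genes differed between experiments. The deposited values differ between experiments far more widely, so this test does not cover the fit without the block under that condition.

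All 33 genes are named, with Adgre1, Pecam1 and Cdh5, and from each further list up to 4 genes with the smallest p with the block among those with 1 direction in all 4 experiments. Myl9, Fabp4, Higd1b, Heyl, Jag2, Clec3b, Sfrp4, Pcolce and Fap were added after their values were seen. The genes and lists were chosen with earlier results of these data known. Alternatives were blocks, omitted arrays and experiments, centring, the mean of probe sets, a filter on dim probe sets, another prior and the methods' t-test.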

Additional observations from a re-analysis of the deposited data

Results flagged for a closer look

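For 3 genes the lean pool of experiment 3 lay far below the other 3 lean pools by Dixon's criterion: Pdgfra was at 5.60 (7.04 to 7.25 in the others), Col1a1 at 6.09 (8.37 to 8.77) and Col1a2 at 5.93 (8.23 to 8.64). Pck1 was at 4.81 in the lean pool of experiment 4 (4.16 to 4.20 in the others), and Plin4 at 4.94 in the obese pool of experiment 1 (4.21 to 4.31). These are 5 of 66 groups examined, and chance gives about 1 in 20.

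Of the 33 genes, 4 had differences of opposite sign with the 45% and the 60% HFD, in both experiments of each, though none passed a test of diet, and the difference was -0.0014 for Myh11 in experiment 2 and 0.0045 for Notch3 in experiment 1. The mean difference of the 45% experiments minus that of the 60% experiments was 1.39 for Cspg4, 1.10 for Myh11, 0.89 for Notch3 and 0.43 for Plin4. The difference between the diets' fat contents was not tested, it cannot be told apart from experiment, and 8.25% of all genes showed such opposite directions.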

How the results depend on the processing

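The number of arrays, and for Cnn1, Msln, Krt19, Slc2a4, Plin4, Pck1 and the obese pools of Adipoq and Retn in experiments 2 and 4 signal near background, limit these results. No gene of the 33 passed the adjusted threshold in HFD against LFD under any alternative, and the methods' t-test had 810 genes, 1 of the 33 among them, at its unadjusted threshold. With the replicate block, 70 genes passed once arrays were centred on their medians and 25 without dim probe sets, with 0 of the 33 in either (both settings were chosen after seeing the data). At an unadjusted p under 0.05, 2 of the 33 passed with centred arrays, 5 with a random block, 7 with the replicate block (9 with centred arrays too, 7 without dim probe sets), and 0 to 4 with arrays left out. The F test between experiments called 2579 genes and 15 of the 33 with centred arrays, 822 and 4 with no diet term, and 0 to 2573 and 0 to 10 with an experiment left out. The medians of the 4 classes kept their sign under the alternatives that left out no array, though the fibroblast median was 0.25 with the mean of probe sets against 0.49. With arrays left out the medians of all 4 classes turned sign. They ranged from -0.46 to 0.75 for mural, -0.16 to 0.68 for fibroblast, -0.31 to 0.04 for adipocyte and -0.28 to 0.21 for mesothelial genes.

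The sign of the mean difference held under every alternative run for 13 of the 33 genes, among them Retn (-2.19 to -1.27 with arrays left out), Car3 (-1.65 to -0.80), Adipoq (-1.02 to -0.41), Gpd1 (0.33 to 0.64), Lep (0.31 to 0.67), Col1a1 (0.37 to 1.36), Col3a1 (0.42 to 1.39), Col1a2 (0.20 to 1.18), Col5a1 (0.20 to 0.68) and Lum (0.16 to 1.12). It held only narrowly for Pck1 (-0.32 to -0.011), Msln (0.038 to 0.34) and Pi16 (-0.49 to -0.069). For Col5a1 the mean difference was 0.17 with the mean of probe sets, and -0.16 by its further probe set alone. Centring turned Rgs5 (-0.0216), Dpt (-0.0407) and Slc2a4 (-0.0425). Omitted arrays turned the sign of 20, with ranges of -0.27 to 1.33 for Pdgfrb, -0.88 to 0.76 for Rgs5, -0.0850 to 0.75 for Cspg4, -1.02 to 0.44 for Acta2, -1.11 to 0.43 for Tagln, -0.66 to 0.79 for Myh11, -0.34 to 0.12 for Cnn1, -0.46 to 0.74 for Notch3, -0.40 to 0.75 for Des, -0.16 to 0.53 for Pdgfra, -0.21 to 0.90 for Col6a1, -0.60 to 0.16 for Dcn, -0.54 to 0.29 for Dpt, -0.28 to 0.53 for Mfap5, -0.18 to 0.063 for Plin1, -0.25 to 0.0823 for Plin4, -0.41 to 0.79 for Aoc3, -0.38 to 0.42 for Slc2a4, -0.37 to 0.21 for Upk3b and -0.28 to 0.0849 for Krt19. Except for centring, where array medians shift the values, the turns come with fewer arrays, and the cause was not tested.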
